A study of Mus musculus with 12 samples.

Results

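The transporter genes of drug and bile handling were followed in mouse liver through 7 gene families of the deposited expression table: every symbol that begins with Slco and a digit, Slc22a, Slc10a, Slc47a, Abcb, Abcc or Abcg. These were 77 of 23909 genes. Of the 77, 44 reached 1 RPKM (reads scaled by gene length and library size) in 3 or more libraries and entered the tests, a share of 57.1% against 50.4% of all genes (12058). All samples were liver RNA of C57BL/6 mice, and no genotype other than the strain and no drug or diet treatment is named. JAX mice came from Jackson and TAC mice from Taconic, each housed with mice of their own vendor. CoJAX mice were Jackson mice housed with Taconic mice, and CoTAC mice were Taconic mice housed with Jackson mice. Housing lasted 4 weeks, each of the 4 groups held 3 libraries, and the stated interest was how different gut microbes affect the liver. The labels used here give no sex, age or cage and leave unsaid whether every library had its own animal. The p-values rest on the scatter of the libraries, part of which may be technical. Xist was listed at 0 in all libraries but CoTAC 2 (0.0208 RPKM), and the Y-linked gene Ddx3y at 15.5 to 31.0 RPKM.

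Hepatocytes take bile acids, hormones, drugs and other organic ions from sinusoidal blood through solute carriers of the Slc10, Slco and Slc22 families. They modify many of these compounds and pump them into bile through ATP-driven pumps of the Abcb, Abcc and Abcg families at the canalicular membrane, while other Abcc pumps return conjugates to the blood. Bile acids activate the nuclear receptor FXR (Nr1h4) and many drugs activate PXR (Nr1i2) and CAR (Nr1i3), and these receptors control several of the transporter genes.

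The families differed in how much of them the liver libraries held. In Abcb, 9 of 10 genes reached the threshold, in Slc10a 7 of 8, in Abcg 5 of 6 and in Abcc 6 of 10. In Slc22a, 10 of 26 did, in Slco 6 of 15 and in Slc47a 1 of 2. Of the 33 genes below the threshold, 16 were listed at 0 in every library and 17 had some reads. Those at 0 included the kidney organic anion transporters Slc22a6 and Slc22a8, the carnitine transporter Slc22a16, known from testis, the channel subunit Abcc8, and 7 Slco genes. Just inside the threshold lay Abcb1a (highest value 1.21 RPKM) and Slc10a6 (1.27 RPKM), each with 3 libraries at 1 RPKM or above. Just outside lay Abcc4 (2 libraries, highest value 1.31 RPKM), Slc22a27 (2 libraries, 1.49 RPKM), Slc22a13b-ps (1 library, 1.39 RPKM) and Slc22a17 (1 library, 1.33 RPKM). At the other end, 18 of the 77 genes averaged above 50 RPKM and 7 above 100 RPKM, and 39 stood at 1 RPKM or above in all 12 libraries.

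Sequencing was shallow and uneven. From the steps between low values, the libraries held an estimated 1480000 to 3660000 reads, and 1 read in 2000 nucleotides came to 0.34 RPKM in the shallowest library and 0.14 RPKM in the deepest. The JAX libraries held 1480000 to 1950000 reads, the TAC libraries 1550000 to 3410000, the CoJAX libraries 2120000 to 3660000 and the CoTAC libraries 3090000 to 3580000. The depths of JAX and CoJAX did not overlap, and neither did those of JAX and CoTAC, so depth and the CoJAX against JAX comparison cannot be told apart by design. All JAX libraries and TAC 1 were the 4 shallowest. The values of the top liver transcripts crowded at the level of Alb within a library, and 791 of 12058 genes averaged above 25% of that level. Among the 44 tested transporter genes 3 did so, among them Slc10a1 (40.9%) and Slco1b2 (32%). Of 6 hepatocyte markers, 5 were in the table, summing to 3290 to 4070 RPKM (JAX), 2160 to 4150 (TAC), 2020 to 3310 (CoJAX) and 2060 to 2420 (CoTAC). The markers did not move together. Between CoJAX and JAX, Apob was called higher (log2 difference 1.13 ± 0.20, SE, adjusted p = 0.00593, limma) and Ttr lower (-0.75 ± 0.25, adjusted p = 0.0485). These calls stand against 12.7% and 11.5% of all genes, and the other markers were not called. The pancreas genes Prss1, Cpa1 and Cel and the kidney genes Slc12a1 and Kap were listed at 0. Alb stood at 1152 RPKM in JAX 3, the shallowest library, and at 512 in CoJAX 3, the deepest. Its estimated reads per base stayed between 1.69 and 1.88 in the 12 libraries, so the hepatocyte sums cannot be told apart from depth. In bulk liver, fewer cells of a type and less RNA per cell cannot be told apart.

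**Figure D1:**
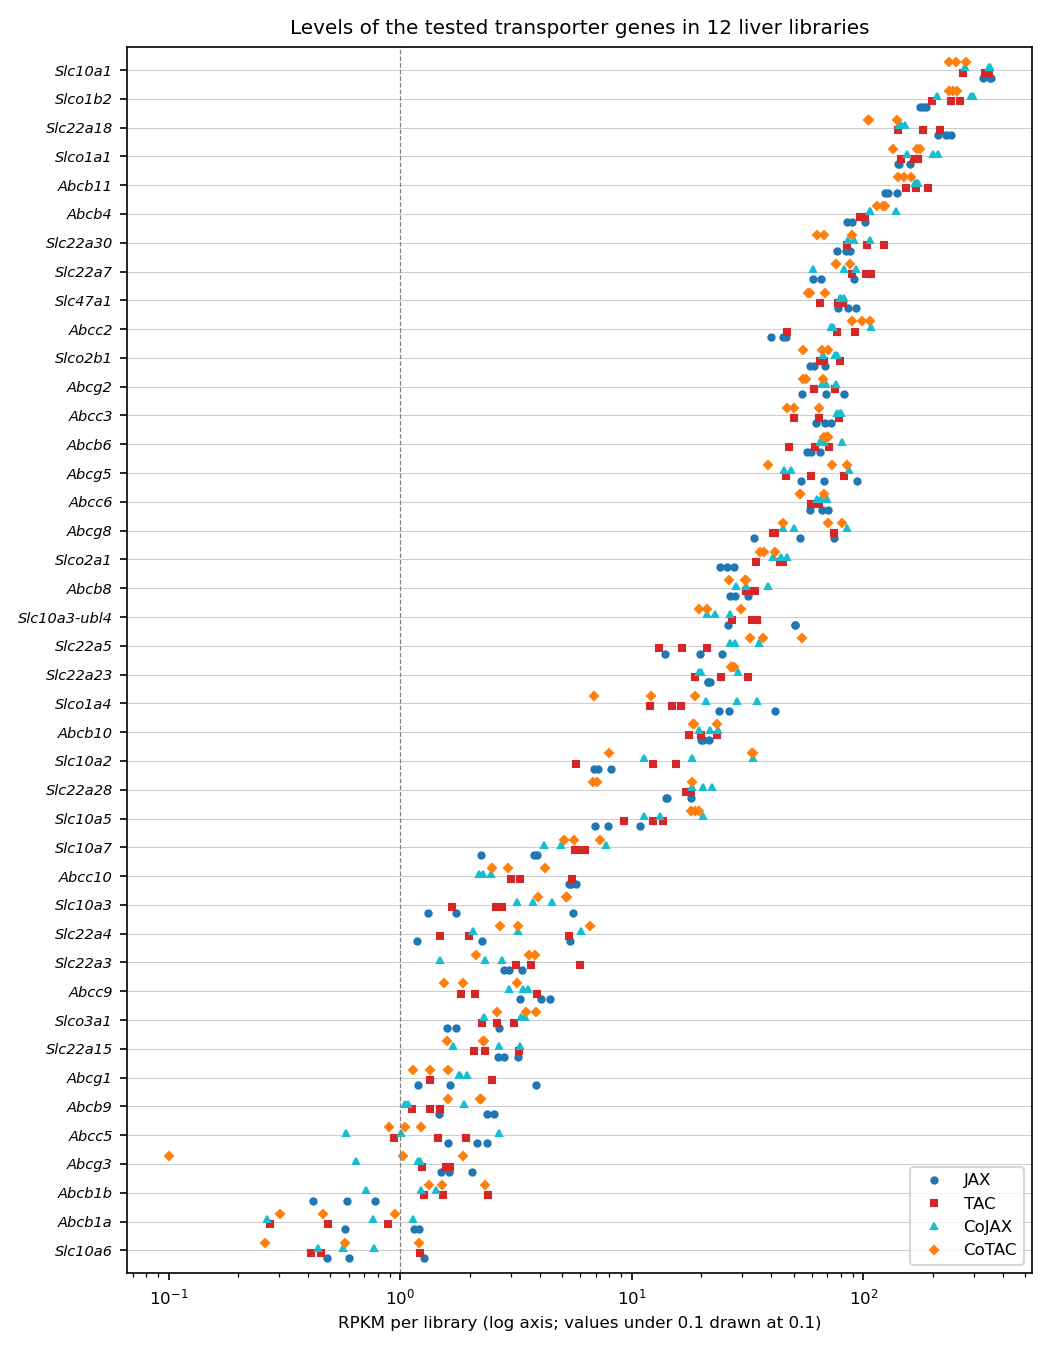
RPKM (log axis) of 42 of the 44 tested transporter genes in each of the 12 libraries, ordered by mean, with 1 point per library, its colour and shape giving the group, and values under 0.1 RPKM drawn at 0.1. Slc10a1 and Slco1b2 lie at the top, and Abcb1b, Abcb1a and Slc10a6 lie around the dashed line at 1 RPKM.

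Among the uptake carriers of the sinusoidal membrane, 8 of 13 were tested, and the bile acid importer Slc10a1 had the highest mean of all 77 genes. Slc10a1 (NTCP), the sodium-driven importer of conjugated bile acids, stood at 355, 329.7 and 352 RPKM in JAX, 335, 347 and 269 in TAC, 348, 352 and 274 in CoJAX, and 250.0, 277 and 234 in CoTAC. The CoTAC libraries were lower than every JAX library, and overlapped with the lowest TAC and CoJAX libraries. The lowest libraries, those of CoTAC with TAC 3 and CoJAX 3, were also the deepest. With relative depth as a covariate, the log2 difference between CoTAC and TAC was -0.15 ± 0.11 (SE), against -0.31 ± 0.14 without it. Slco1b2, the mouse counterpart of human OATP1B1 and OATP1B3, which clear bilirubin, statins and unconjugated bile acids, stood at 180.3, 175 and 187 RPKM in JAX, 199, 261 and 238 in TAC, 298, 291 and 209 in CoJAX, and 243, 255 and 234 in CoTAC. All JAX libraries were below every other library.

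The remaining uptake carriers were lower or more variable. Slco1a1, an organic anion carrier that is higher in male than in female mouse liver, averaged 147 ± 9.52 RPKM in JAX, 161 ± 13.9 in TAC, 188 ± 29.1 in CoJAX and 160.2 ± 22.4 in CoTAC (SD, n = 3 here and for all group means). Slco2b1, a carrier of steroid sulfates and drugs, ranged only from 55.1 to 79.3 RPKM over the 12 libraries. Slc22a7 (OAT2), a carrier of organic anions and nucleotides, stood at 60.5, 65.8 and 91.3 RPKM in JAX, 108, 103 and 89.7 in TAC, 60.8, 82.2 and 92.9 in CoJAX, and 76.4, 87.4 and 76.1 in CoTAC, with overlap of JAX, TAC and CoJAX. Slco1a4 (Oatp1a4), which carries bile acids, digoxin and other amphipathic compounds and is a known PXR target, stood at 26.3, 23.8 and 41.6 RPKM in JAX and 28.4, 20.9 and 34.7 in CoJAX. In the Taconic mice it stood at 16.4, 14.9 and 11.9 RPKM in TAC and 12.1, 18.8 and 6.90 in CoTAC. Every library of Taconic mice lay below every library of Jackson mice. The extraneuronal cation carrier Slc22a3 (OCT3) lay between 1.49 and 5.98 RPKM.

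At the canalicular membrane all 9 listed genes were tested, and the bile acid and phospholipid pumps led. Abcb11 (BSEP), the main bile salt export pump, stood at 128, 139.6 and 124 RPKM in JAX, 169, 189 and 154 in TAC, 173, 168 and 167 in CoJAX, and 141, 149 and 161 in CoTAC. The JAX libraries were the lowest 3 of the 12. Abcb4 (MDR2), which flips phosphatidylcholine into bile, averaged 91.8 ± 8.42 RPKM in JAX, 99.4 ± 2.63 in TAC, 117 ± 18.5 in CoJAX and 119.7 ± 4.40 in CoTAC. Abcc2 (MRP2), which exports bilirubin glucuronides and glutathione conjugates, stood at 44.9, 39.9 and 46.4 RPKM in JAX, 46.7, 77.2 and 92.3 in TAC, 74.2, 108 and 72.8 in CoJAX, and 107, 98.9 and 89.6 in CoTAC. TAC 1 lay just above the JAX libraries, and the other 8 libraries lay well above both. Slc47a1 (MATE1), a proton exchanger that exports organic cations, stood at 93.0, 85.9 and 77.7 RPKM in JAX, 77.5, 81.3 and 65.0 in TAC, 82.4, 80.0 and 79.2 in CoJAX, and 57.4, 68.0 and 58.9 in CoTAC. The CoTAC values overlapped with TAC alone. Abcg2 (BCRP), which exports sulfate conjugates and drugs, ranged from 54.4 to 82.7 RPKM.

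Promoter windows of 4 genes are printed because their values carry the results that follow: Slco1b2, Abcb11 and Abcc2 were lowest in the JAX libraries, and Abcg8 shares its promoter region with Abcg5. Each window runs from 250 bases before to 50 bases after the RefSeq start site on the strand of the gene, in the GRCm38.p6 assembly, whereas the expression values were made with mm9, per the submitters' processing notes. Windows were found for 59 of the 77 genes. Capitals mark matches, on either strand, to the letter patterns named here for each window, and matches to the other patterns stay in lower case. The patterns were chosen with the sequences in view. In Abcb11 (chr2:69342567-69342866, minus strand) and Slco1b2 (chr6:141629268-141629567, plus strand) the marked pattern is AGGNCA and TGACCT with any 1 base between them. It is an inverted repeat of the kind bound by FXR. In Abcc2 (chr19:43782058-43782357, plus strand) it is GTTAA and ATTAA with any 2 bases between them, a pattern of the HNF1 kind. In Abcg8 (chr17:84682871-84683170, plus strand) the marked patterns are GATAAG and TATAAA, both on the opposite strand.
Abcb11: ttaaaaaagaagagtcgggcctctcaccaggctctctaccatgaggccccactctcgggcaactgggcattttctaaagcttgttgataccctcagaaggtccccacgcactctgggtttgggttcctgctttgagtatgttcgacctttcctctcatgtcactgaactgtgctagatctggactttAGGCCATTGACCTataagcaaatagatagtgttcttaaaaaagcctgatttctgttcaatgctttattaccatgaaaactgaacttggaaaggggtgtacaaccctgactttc
Slco1b2: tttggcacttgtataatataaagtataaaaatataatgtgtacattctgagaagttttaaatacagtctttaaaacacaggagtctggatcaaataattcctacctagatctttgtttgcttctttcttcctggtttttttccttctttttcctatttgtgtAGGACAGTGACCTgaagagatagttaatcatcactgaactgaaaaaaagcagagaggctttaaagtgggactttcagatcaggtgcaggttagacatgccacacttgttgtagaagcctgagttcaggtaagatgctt
Abcc2: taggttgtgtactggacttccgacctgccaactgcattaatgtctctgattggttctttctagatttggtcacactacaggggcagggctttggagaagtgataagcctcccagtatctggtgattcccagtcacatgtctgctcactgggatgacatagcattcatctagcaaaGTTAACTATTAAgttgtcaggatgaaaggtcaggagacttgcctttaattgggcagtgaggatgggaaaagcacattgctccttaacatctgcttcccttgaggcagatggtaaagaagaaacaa
Abcg8: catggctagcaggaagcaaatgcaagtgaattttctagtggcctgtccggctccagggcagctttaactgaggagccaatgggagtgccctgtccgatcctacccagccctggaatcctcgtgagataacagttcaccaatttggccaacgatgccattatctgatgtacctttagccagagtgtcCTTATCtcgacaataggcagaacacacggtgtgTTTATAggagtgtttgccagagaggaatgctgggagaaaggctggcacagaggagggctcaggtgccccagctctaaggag

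The inverted repeat began at base -63 from the start site in Abcb11 and at base -88 in Slco1b2. These were the only 2 of the 59 windows with it, and it was found in 12 of 32851 RefSeq promoter windows of the same length (0.0365%). The pattern of the HNF1 kind began at base -75 in Abcc2 and was also found, on the opposite strand, in the window of Slc10a2, against 50 of all windows (0.152%). The shorter patterns were common. GATAAG was found in 7 of the 59 windows (Abcb4, Abcc2, Abcg2, Abcg5, Abcg8, Slc22a13 and Slc22a18) and in 7.44% of all windows, and TATAAA in 12 of the 59 and in 13.6% of all. The start sites of Abcg5 and Abcg8 lie 110 bases apart on opposite strands, so that their windows share 209 bases. A match of letters is a description of the window and was not tested as a binding site.

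Abcg5 and Abcg8, which join into the pump that secretes cholesterol and plant sterols into bile, followed each other from library to library, and their groups overlapped in every comparison. Abcg5 stood at 67.3, 54.0 and 94.1 RPKM in JAX, 59.6, 46.4 and 82.1 in TAC, 48.5, 86.6 and 45.3 in CoJAX, and 73.0, 85.0 and 38.8 in CoTAC. Abcg8 stood at 53.5, 33.7 and 74.9 RPKM in JAX, 41.5, 40.8 and 74.8 in TAC, 49.9, 85.3 and 45.0 in CoJAX, and 70.4, 81.1 and 45.1 in CoTAC. In each group the library highest for Abcg5 was also the highest for Abcg8. The ratio of Abcg5 to Abcg8, which are counted per length, lay at 1.26, 1.60 and 1.26 in JAX, 1.44, 1.14 and 1.10 in TAC, 0.97, 1.02 and 1.01 in CoJAX, and 1.04, 1.05 and 0.86 in CoTAC. The ratio was above that of every cohoused library in each library of JAX and TAC, and since the shallowest libraries are among these, the part of depth in it was not tested.

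The same libraries were high for Dbp, a circadian transcription factor whose liver transcript swings widely over the day. Dbp stood at 77.5, 0.786 and 102 RPKM in JAX, 0.395, 0.595 and 94.1 in TAC, 4.90, 144 and 19.4 in CoJAX, and 99.8, 105 and 2.96 in CoTAC, and the labels used here give no time of collection. The library with the highest Dbp value in its group was also the highest of its group, in each of the 4 groups, for 7 of the 44 transporter genes, against 2.43% of all genes tested (293 of 12058). These 7 were Abcg5, Abcg8, the organelle pumps Abcb6, Abcb8 and Abcb10, Abcc6 and Slco2a1. The Dbp order was set against the transporter genes after its spread had been seen. With Dbp as a covariate, a model also added after the data were seen, 12 of the 13 called differences described below passed the threshold, and that of Slc22a5 did not.

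**Figure D2:**
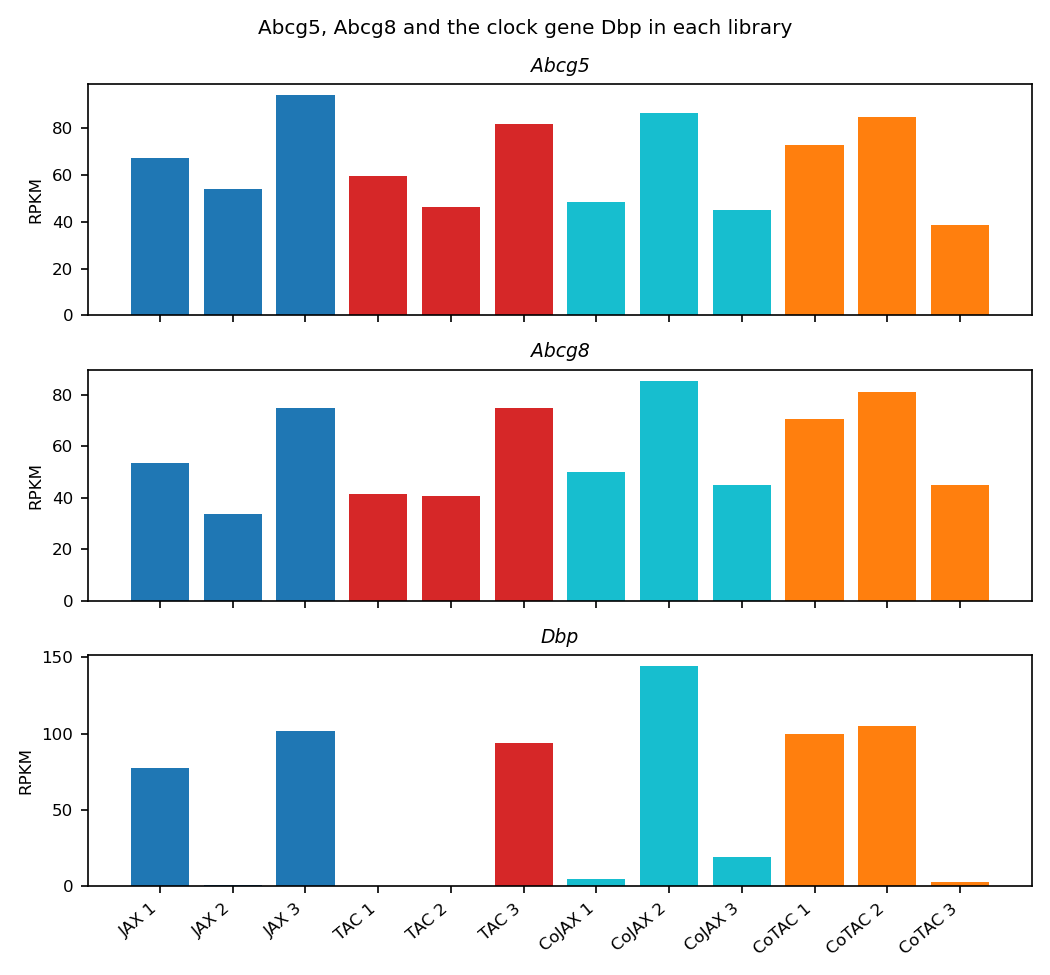
Bars give the RPKM of Abcg5 (top), Abcg8 (middle) and the clock gene Dbp (bottom) in each of the 12 libraries, coloured by group, with no error because each bar is 1 library. JAX 3, TAC 3, CoJAX 2 and CoTAC 2 are the highest of their groups in all 3 panels.

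The drug efflux pumps Abcb1a and Abcb1b, each of which encodes a mouse P-glycoprotein, were near the limit of detection. Abcb1a stayed between 0.267 and 1.21 RPKM. Abcb1b stood at 0.780, 0.419 and 0.588 RPKM in JAX, 2.39, 1.27 and 1.53 in TAC, 1.43, 1.23 and 0.712 in CoJAX, and 2.33, 1.51 and 1.33 in CoTAC, on an estimated 3 to 33 reads per library. Each TAC and CoTAC library was above each JAX library. The 2 genes are near-identical in parts of their sequence, so reads could be assigned to either.

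Of the pumps that return conjugates to blood, 3 of 5 were tested. Abcc3 (MRP3), which exports glucuronides and bile acids, stood at 72.6, 68.1 and 62.2 RPKM in JAX, 50.01, 78.2 and 64.4 in TAC, 79.6, 80.2 and 77.0 in CoJAX, and 50.1, 64.4 and 46.8 in CoTAC. Its CoTAC values lay below all CoJAX values. Abcc6, a liver pump whose loss in humans leads to ectopic mineralization, ranged from 53.1 to 70.2 RPKM, and Abcc5, a pump of cyclic nucleotides, from 0.584 to 2.67 RPKM. Abcc4 (MRP4), known to be induced in cholestatic liver, stayed between 0.274 and 1.31 RPKM.

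TAC was compared with JAX to measure how the colonies differed when housed apart. Slco2a1 alone passed the test. It encodes the prostaglandin transporter, which is known from endothelium as well as epithelia, and stood at 25.8, 24.2 and 27.5 RPKM in JAX and 34.3, 43.6 and 45.0 in TAC, with no overlap. The log2 difference was 0.65 ± 0.12 (SE, on the log2(RPKM + 0.5) scale used for all differences; adjusted p = 0.0267, limma). It was 1 of 44 transporter genes called, against 4.09% of all genes tested (2.38% higher and 1.71% lower), and 0 were called lower. At an unadjusted p under 0.05 there were 8 higher and 2 lower transporter genes, against 26.2% of all genes in either direction, and 9 of 44 had groups that did not overlap, against 26.2%. The median difference of the 44 was -0.00, and that of all genes -0.008.

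Among the genes that missed the threshold, Slco1a4 differed by -1.03 ± 0.32 (adjusted p = 0.0787) and the mean RPKM of Abcb1b was 2.90 times as high in TAC as in JAX (adjusted p = 0.0699). Abcb11 differed by 0.38 ± 0.10 (adjusted p = 0.0582), Abcc2 by 0.66 ± 0.22 (adjusted p = 0.0931) and Slc22a7 by 0.48 ± 0.18 (adjusted p = 0.115). The call of Slco2a1 was lost without any of the 3 JAX libraries and without TAC 2 or TAC 3, at values of 0.58 to 0.69, and with relative depth as a covariate (0.55 ± 0.12, adjusted p = 0.0635). Without TAC 1, the shallow library, 6 of 44 transporter genes were called, 4 higher and 2 lower, below the 17.6% of all genes called in that fit. They included Abcc2 (0.94 ± 0.17, adjusted p = 0.0075), Abcb11 (0.39 ± 0.11, adjusted p = 0.0397) and Slc22a18 (-0.49 ± 0.15, adjusted p = 0.0433).

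CoJAX was compared with JAX to see what changed in Jackson mice housed with Taconic mice. Of the 44 transporter genes, 7 rose and 3 fell, 22.7% in all, which lay near the share of all genes tested, 24.1% (12.7% higher and 11.5% lower). The comparison shares the JAX libraries with that of TAC against JAX, so the values of the 2 comparisons are not independent. The genes that rose included Slco2a1, Abcc2, Slc10a5, Slco1b2, Abcb11 and Abcb4, and those that fell were Abcc10, Slc10a3-ubl4 and Slc22a18. The median difference of the 44 genes was 0.14, against -0.010 for all genes. Of the 44, 17 had groups that did not overlap (13 higher, 4 lower), against 43.7% of all genes. At an unadjusted p under 0.05 there were 11 higher and 3 lower, against 38.8% of all genes in either direction.

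By role, 3 of 9 canalicular genes rose and none fell, against the 12.7% and 11.5% of all genes. Abcc2 differed by 0.93 ± 0.22 (adjusted p = 0.0138, limma), Abcb11 by 0.38 ± 0.10 (adjusted p = 0.0234) and Abcb4 by 0.35 ± 0.12 (adjusted p = 0.0473), and in each of them every CoJAX library was above every JAX library. Of the 8 uptake carriers tested, 1 rose (12.7% of all genes). This was Slco1b2, with a difference of 0.54 ± 0.15 (adjusted p = 0.0226) and no overlap, although CoJAX 3, at 209 RPKM, was far below the other CoJAX libraries. Slco1a1 differed by 0.34 ± 0.14 (adjusted p = 0.098), and the values of Slc10a1 overlapped.

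Slco2a1 stood at 40.8, 47.0 and 44.2 RPKM in CoJAX, above all JAX libraries, with a difference of 0.76 ± 0.12 (adjusted p = 0.00481, limma). Its CoTAC values, 35.6, 41.4 and 37.2 RPKM, were also above all JAX values. Markers of the liver endothelium ranged from -0.49 ± 0.29 (Lyve1) to 0.49 ± 0.54 (Kdr) between CoJAX and JAX. The part of these cells in the Slco2a1 values was not tested. Of 6 such markers (Pecam1, Stab2, Kdr, Lyve1, Clec4g and Oit3), 0 were called between CoJAX and JAX (limma) and 0 passed an unadjusted p of 0.05. Their median difference was -0.19, and their summed level was 124 to 181 RPKM (JAX), 110 to 136 (TAC), 114 to 162 (CoJAX) and 42.2 to 114 (CoTAC).

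Pumps of the Abcb family that serve organelles were also measured. Abcb6, a porphyrin transporter, averaged 60.4 ± 4.00 RPKM in JAX and 71.0 ± 8.33 in CoJAX, with no overlap and no call. The mitochondrial pumps Abcb8 and Abcb10 averaged 28.8 ± 2.72 and 20.5 ± 0.885 RPKM in JAX, and 32.7 ± 5.41 and 21.7 ± 2.12 in CoJAX. Abcb9, a lysosomal peptide pump, lay between 1.05 and 2.53 RPKM.

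In the Slc10 family beyond Slc10a1, 1 of the 5 tested genes classed apart rose, against 12.7% of all genes. Slc10a5, a liver and kidney member with no established substrate, stood at 6.95, 10.9 and 7.86 RPKM in JAX, 9.22, 12.4 and 13.6 in TAC, 11.3, 20.2 and 13.3 in CoJAX, and 18.04, 18.8 and 19.4 in CoTAC. The lowest CoJAX value was just above the highest JAX value, and the difference was 0.75 ± 0.22 (adjusted p = 0.0309, limma). Slc10a2 (ASBT), the bile acid importer of ileum that cholangiocytes also carry, stood at 7.14, 8.13 and 6.85 RPKM in JAX, 5.72, 12.3 and 15.5 in TAC, 18.2, 11.3 and 33.3 in CoJAX, and 33.2, 7.94 and 33.5 in CoTAC. The JAX values were close to each other and those of the other groups spread several-fold. The difference between CoJAX and JAX was 1.31 ± 0.53 (adjusted p = 0.0901). The summed level of 6 cholangiocyte markers (Krt19, Krt7, Epcam, Sox9, Cftr and Spp1) was 81.6 to 136 RPKM (JAX), 63.2 to 92.8 (TAC), 59.5 to 66.6 (CoJAX) and 42.9 to 164 (CoTAC). Most of each sum was Spp1, which stood at 157 RPKM in CoTAC 1, where Krt19 stood at 2.60. The sum therefore mainly follows 1 gene, and the part of cholangiocytes in the Slc10a2 values was not tested. Of the 5 markers tested, 0 were called in any comparison (limma) and 0 passed an unadjusted p of 0.05.

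The 3 genes that fell came from outside the main transport roles. Slc22a18, an imprinted gene whose product resembles organic cation carriers, stood at 210.0, 228 and 239 RPKM in JAX, 215, 182 and 141 in TAC, 145, 151 and 142 in CoJAX, and 105, 139 and 105 in CoTAC. All CoJAX and CoTAC libraries were below all JAX libraries, and the CoJAX difference was -0.62 ± 0.16 (adjusted p = 0.0166, limma). Strand is not stated, so reads of an overlapping gene on the other strand could not be told apart from its own. Abcc10 (MRP7), a pump of glucuronides and taxanes, stood at 5.75, 5.47 and 5.36 RPKM in JAX, 5.49, 3.01 and 3.28 in TAC, 2.46, 2.19 and 2.27 in CoJAX, and 2.91, 4.22 and 2.50 in CoTAC. CoJAX lay below every other library, and the difference from JAX was -1.10 ± 0.23 (adjusted p = 0.00967). Slc10a3-ubl4, a read-through gene that shares exons with Slc10a3 and Ubl4, stood at 25.9, 50.6 and 50.9 RPKM in JAX and 21.1, 22.8 and 26.5 in CoJAX. The groups overlapped through JAX 1, the difference was -0.78 ± 0.24 (adjusted p = 0.0362), and because reads of the overlapping genes can be assigned to any of them this value is uncertain.

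**Figure D3:**
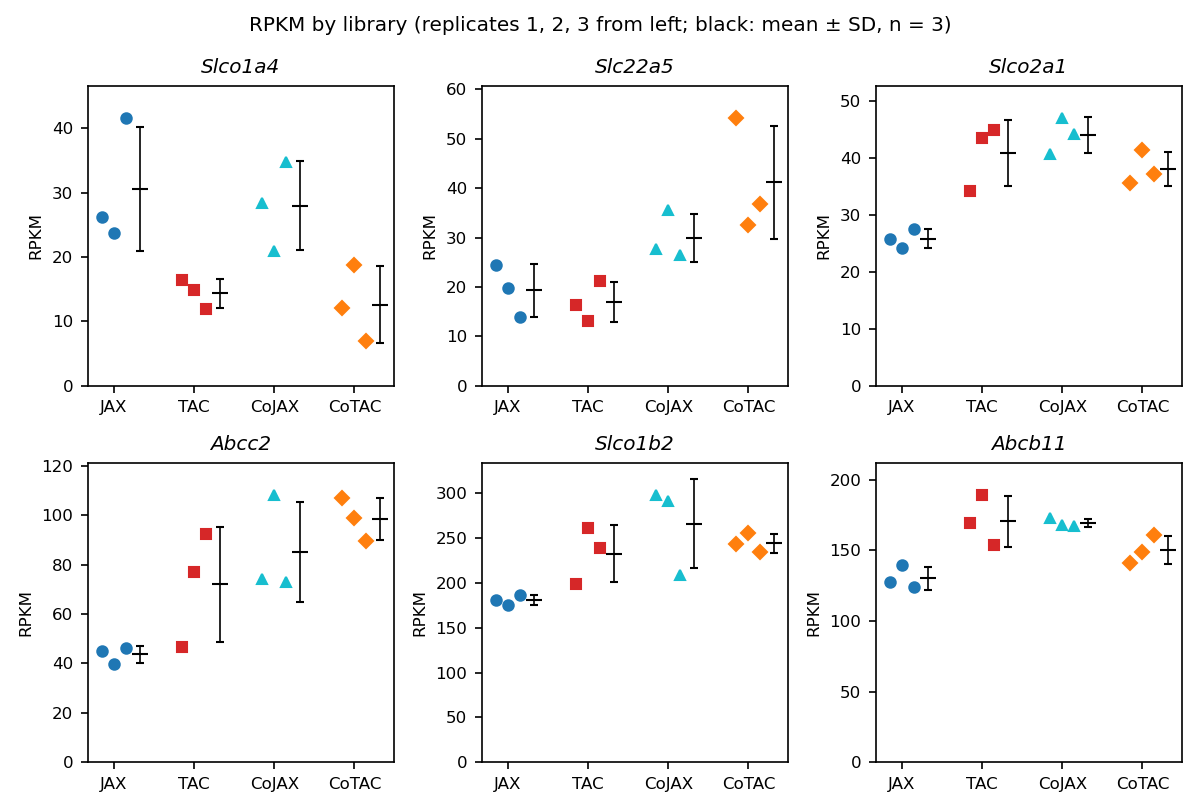
RPKM of 6 transporter genes, with 1 point per library (replicates 1, 2 and 3 from left to right in each group) and the mean ± SD of the group in black (n = 3). Slco1a4 is lower in both Taconic groups, Slc22a5 is highest in CoTAC, and the JAX libraries are the lowest 3 for Slco2a1, Abcc2, Slco1b2 and Abcb11.

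None of the 10 calls between CoJAX and JAX held once relative depth entered the model as a covariate. The difference of Slco2a1 was then 0.60 ± 0.14 (adjusted p = 0.0678), that of Slco1b2 0.60 ± 0.17 (adjusted p = 0.0878), that of Abcb11 0.46 ± 0.11 (adjusted p = 0.065) and that of Abcc2 0.63 ± 0.26 (adjusted p = 0.176). Over all genes, that comparison also moved with transcript length. The median difference was -0.29 for genes of 500 to 2000 nucleotides, 0.07 for 2000 to 4000 and 0.21 for 4000 to 6000. For the transporter genes the medians were 0.09 (5 genes), 0.17 (21 genes) and 0.22 (13 genes). Slc22a18, which fell, has a transcript of 1538 nucleotides, while Abcc2 and Slco2a1, which rose, have 4976 and 7122, but Abcc10, which fell, has 4885. TAC 1 lay nearer to the JAX mean than to the mean of TAC 2 and TAC 3 in 5 of the 10 called genes (Abcc2, Slc10a5, Slco1b2, Slc22a18 and Abcc10), against 60.2% of all 2911 genes called in the comparison. The number of called transporter genes was 3 without CoJAX 2, 4 without JAX 3, 6 without JAX 2 and 6 without CoJAX 3, against 10.6%, 11.9%, 14.1% and 13.4% of all genes in these fits. With CoJAX 3 as the only CoJAX library, the lone library is assumed to vary like the other groups, so calls are not counted.

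**Figure D4:**
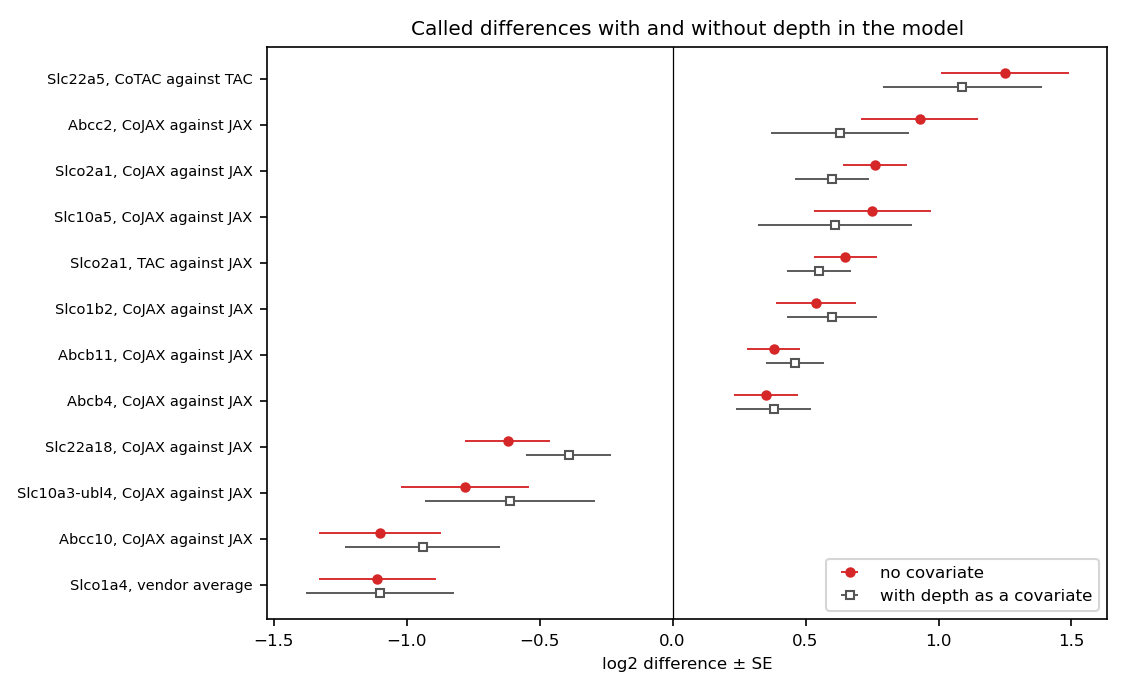
Log2 differences ± SE of 12 of the 13 called differences (1 row each, named by gene and comparison) from the model without a covariate (filled red circles) and with relative depth as a covariate (open squares). All 12 keep their sign, the value of Abcc2 moves from 0.93 to 0.63, and none of the 12 passes the threshold with the covariate.

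CoTAC was compared with TAC to see what changed in Taconic mice housed with Jackson mice. Slc22a5 (OCTN2), the importer of carnitine, which fatty acid oxidation in mitochondria requires, rose and was the only transporter gene called. It stood at 16.4, 13.1 and 21.1 RPKM in TAC and 54.2, 32.5 and 36.8 in CoTAC, with no overlap, and the difference was 1.25 ± 0.24 (adjusted p = 0.0428, limma). This was 1 of 44, against 0.647% of all genes tested. In Jackson mice it stood at 24.5, 19.7 and 13.9 RPKM in JAX and 27.8, 35.5 and 26.4 in CoJAX, again with no overlap, and the difference of 0.64 ± 0.24 missed the threshold (adjusted p = 0.0738). The related carriers of zwitterions Slc22a4 and Slc22a15 averaged 2.95 ± 2.12 and 2.55 ± 0.617 RPKM in TAC, and 4.17 ± 2.12 and 2.06 ± 0.398 in CoTAC. With relative depth as a covariate the Slc22a5 difference was 1.09 ± 0.30 (adjusted p = 0.332), and without 1 library it ranged from 1.04 to 1.42 and missed the threshold in 7 of 12 fits.

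Further genes of this comparison differed without a call. Slc22a18 differed by -0.61 ± 0.16 (adjusted p = 0.0838), Slc10a5 by 0.67 ± 0.22 (adjusted p = 0.124) and Slc10a1 by -0.31 ± 0.14 (adjusted p = 0.193), the last of which turned to 0.03 ± 0.11 under quantile normalization. At an unadjusted p under 0.05 there were 6 higher and 5 lower transporter genes, against 24.6% of all genes, 10 of 44 had groups that did not overlap, against 26.4%, and the median was -0.09, against -0.003 for all genes. Slc22a28 and Slc22a30, rodent genes of the organic anion transporter branch, were low in the same CoTAC libraries. Slc22a28 stood at 18.1, 17.3 and 17.1 RPKM in TAC and 7.06, 18.1 and 6.78 in CoTAC, a difference of -0.84 ± 0.28 (adjusted p = 0.129). Slc22a30 stood at 123, 103 and 84.9 RPKM in TAC and 67.7, 89.5 and 63.2 in CoTAC, a difference of -0.50 ± 0.16 (adjusted p = 0.118). CoTAC 1 and CoTAC 3 were the low libraries of both genes, while CoTAC 2 lay within the TAC range for Slc22a30 and just above it for Slc22a28. In the same 2 libraries Lcn2, an acute-phase gene, stood at 520.1 and 537 RPKM, against 19.0 in CoTAC 2 and 13.4 to 227 in the other groups. The 6 endothelial markers were also low there, with a summed level of 48.8 RPKM in CoTAC 1 and 42.2 in CoTAC 3, against 114 in CoTAC 2 and 110 to 136 in TAC. Their median difference was -1.06 between CoTAC and TAC (0 called by limma, 4 of 6 at an unadjusted p under 0.05) and -1.11 between CoTAC and CoJAX (0 called, 5 of 6). The parts of Lcn2 and of these markers in the carriers' values were not tested. Without CoTAC 2, 3 transporter genes were called, 1 higher and 2 lower, against 3.14% of all genes, and without TAC 3 also 3, against 12.7%.

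CoTAC was compared with CoJAX to see which vendor differences remained between mice housed together. None of the 44 transporter genes was called, against 0.0663% of all genes tested (0.0249% higher and 0.0415% lower, 8 genes in all), and the lowest adjusted p was 0.239 (limma). At an unadjusted p under 0.05, 6 were lower and 0 higher, against 10.8% of all genes in either direction, and 9 had groups that did not overlap (2 higher, 7 lower), against 19.0%. The 6 were Slco1a4 (-1.20 ± 0.32, adjusted p = 0.239), Slc22a28 (-1.03 ± 0.28), Abcc3 (-0.56 ± 0.16), Slc47a1 (-0.39 ± 0.11), Slc22a30 (-0.37 ± 0.16) and Slc10a1 (-0.35 ± 0.14). The median of the 44 was -0.11, against 0.007 for all genes. Without CoTAC 2, 2 were called, against 1.91% of all genes, Slc22a28 (-1.48 ± 0.14, adjusted p = 0.00107) and Slco1a4 (-1.53 ± 0.29, adjusted p = 0.0285).

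Averaged over the apart and the cohoused comparison, Taconic mice were lower than Jackson mice in Slco1a4. The average difference was -1.11 ± 0.22 (adjusted p = 0.0314, limma), with no overlap between the 6 libraries of each vendor, and was 1 of 44, against 3.47% of all genes tested (1.93% lower). At an unadjusted p under 0.05 there were 6 higher and 6 lower transporter genes, against 26.8%. Slc47a1 differed by -0.29 ± 0.079 (adjusted p = 0.0584) and Abcb1b by 0.73 ± 0.21 (adjusted p = 0.0687). The Slco1a4 value ranged from -1.28 to -0.93 without 1 library and missed the threshold in 8 of 12 fits, and with relative depth as a covariate it was -1.10 ± 0.28 (adjusted p = 0.103). Within CoTAC, Slco1a4, Slc47a1 and Abcc3 were each lower in CoTAC 1 and CoTAC 3, the libraries high in Lcn2, than in CoTAC 2. Lcn2 was also higher in every TAC library (62.1 to 227 RPKM) than in every JAX library (13.4 to 27.4). The part of Lcn2 in the vendor difference was not tested. Slco1a genes are close paralogs, so reads could be assigned between Slco1a1, Slco1a4 and the genes listed at 0, Slco1a5 and Slco1a6.

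The interaction tested whether the vendor difference itself changed with cohousing. None of the 44 genes was called, against 0% of all genes, and the lowest adjusted p was 0.229 (limma). At an unadjusted p under 0.05 there were 2 higher and 5 lower transporter genes, against 11.3% of all genes. For Slco2a1 the interaction was -0.85 ± 0.17 (adjusted p = 0.229), and for Abcb11 -0.56 ± 0.15 (adjusted p = 0.265). Without TAC 1 the Slco2a1 interaction passed the threshold (-0.97 ± 0.14, adjusted p = 0.0274), 1 of 44 against 0.383% of all genes. Without CoTAC 2 that of Slc22a28 did (-1.66 ± 0.19, adjusted p = 0.0187).

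**Figure D5:**
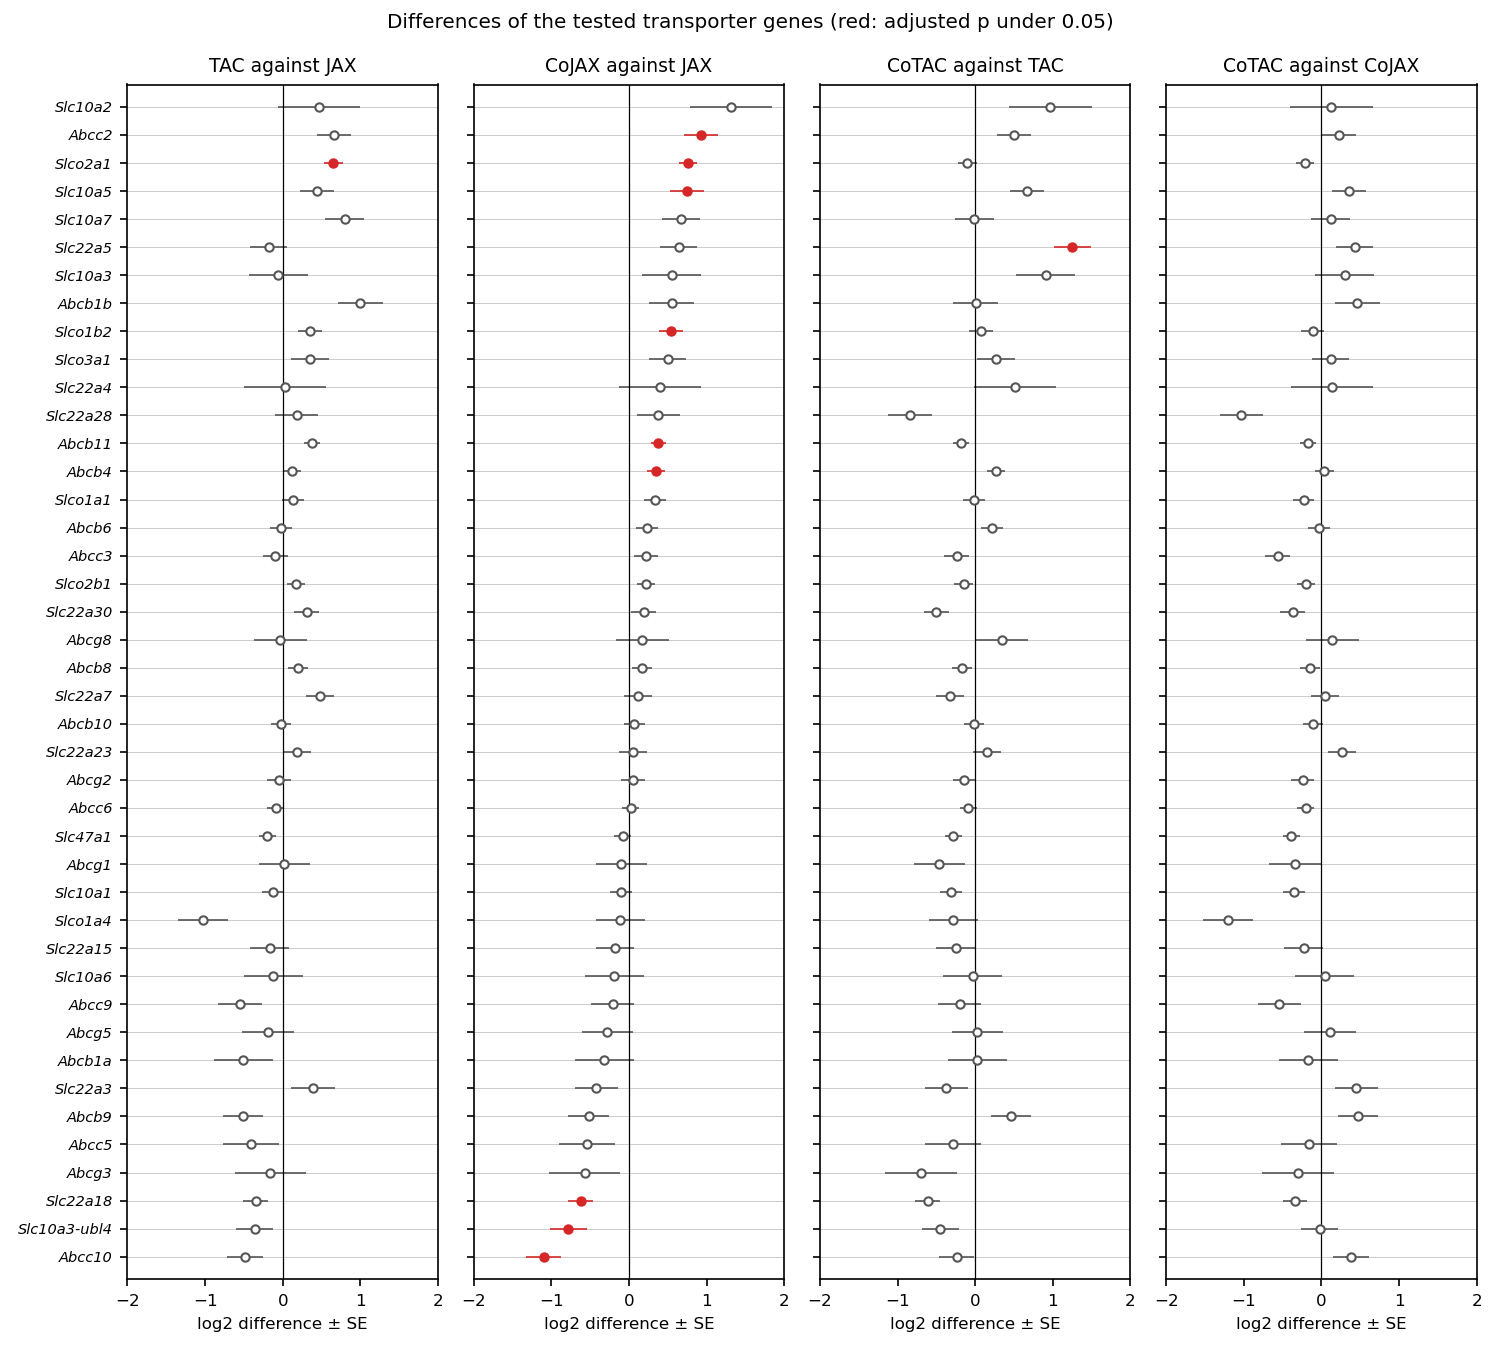
Log2 differences ± SE of 42 of the 44 tested transporter genes in 4 comparisons (1 panel each), ordered by the difference between CoJAX and JAX, with red filled points for an adjusted p under 0.05. The red points number 1, 9, 1 and 0 from left to right.

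Variation within groups was largest in a few genes. Of the genes above 10 RPKM, the median coefficient of variation was 7.77% in JAX, 13.5% in TAC, 11.9% in CoJAX and 10.6% in CoTAC. The most variable were Abcg8 in JAX (38.2%), Slc10a2 in TAC (44.7%) and CoJAX (54.0%), and Slc22a28 in CoTAC (60.8%). Below the threshold of detection, Slc22a27, an organic anion transporter of rodents, stood at 1.19, 1.49 and 0.626 RPKM in JAX, and at 0 in 6 of the other 9 libraries with a highest value of 0.406, on 0 to 5 estimated reads. Slc22a13b-ps stood at 0.740, 1.39 and 0.488 RPKM in JAX, 0.466, 0.351 and 0.211 in TAC, and 0 in all 6 cohoused libraries, on 0 to 3 estimated reads. Neither was tested.

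Genes that regulate or accompany the transporters were counted from lists by role. Depth and the CoJAX against JAX comparison cannot be told apart for them either. With relative depth as a covariate, 39 of 12058 genes were called there, and these lists were not followed in that fit. Of 18 regulators, 4 rose and 0 fell between CoJAX and JAX, against 24.1% of all genes called. They were the liver factors Hnf4a, Nr5a2 (LRH-1) and Foxa2, and Rxra, the shared partner of FXR, PXR and CAR. Nr5a2 averaged 9.24 ± 2.17 RPKM in JAX and 23.5 ± 3.06 in CoJAX, a difference of 1.32 ± 0.24 (adjusted p = 0.00616, limma). Foxa2 averaged 18.7 ± 3.82 and 41.1 ± 12.4 RPKM, a difference of 1.09 ± 0.22 (adjusted p = 0.00852). No regulator was called in the other comparisons (limma), in which 2 to 7 of the 18 passed an unadjusted p of 0.05, against 10.8% to 26.8% of all genes. FXR (Nr1h4) averaged 135 ± 4.84 RPKM in JAX, 98.7 ± 17.6 in TAC, 111 ± 18.5 in CoJAX and 116 ± 5.68 in CoTAC. SHP (Nr0b2), a repressor that FXR induces, averaged 129 ± 17.8, 129 ± 40.7, 110 ± 35.5 and 66.9 ± 13.9 RPKM in the same order. CAR (Nr1i3) averaged 95.8 ± 7.87 RPKM in JAX and 66.6 ± 7.82 in TAC, a difference of -0.52 ± 0.15 (adjusted p = 0.0658), and PXR (Nr1i2) 87.2 ± 14.5 and 76.7 ± 3.75 RPKM.

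Of 15 genes of membrane trafficking and anchoring, 1 rose and 1 fell between CoJAX and JAX, against 12.7% and 11.5% of all genes. Tjp1, which encodes a protein of tight junctions, differed by 0.43 ± 0.13 (adjusted p = 0.0333, limma), and Ezr, which links membrane proteins to actin, by -0.73 ± 0.22 (adjusted p = 0.034). Of a list of 24 further carriers, which also holds the untested Slc47a2 of the families above, 20 were tested. In that comparison 5 rose and 0 fell, against 24.1% of all genes called (12.7% higher, 11.5% lower). The 5 were the copper exporter Atp7b (1.55 ± 0.37, adjusted p = 0.014), the cholesterol exporter Abca1 (0.67 ± 0.13, adjusted p = 0.00776), Slc16a10, Tmem30a and Abcd3. Between TAC and JAX, Abca1 rose (2.38% of all genes). The monocarboxylate carrier Slc16a7 (-0.86 ± 0.17, adjusted p = 0.028) and the peroxisomal carrier Abcd2 fell (1.71% of all genes). Of 14 genes of bile acid synthesis, 1 rose between CoJAX and JAX (12.7% of all genes), the peroxisomal oxidase Acox2 (0.36 ± 0.11, adjusted p = 0.0389). Of 15 clock genes, 0 were called in any comparison (limma). At an unadjusted p under 0.05 there was 1, between CoTAC and TAC, against 24.6% of all genes.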

How the data were processed

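RNA was sequenced from 12 liver samples. Per the labels' protocols, RNA came from Trizol extraction and poly(A) selection on beads, and a ThruPLEX kit served for the libraries. The values deposited by the authors are RPKM in 1 table, with a column per library. The submitters' processing notes name Bowtie 1.0.0, Cuffdiff 2.1.1 and the build mm9 but no roles. Strand, annotation and filters were not given in the sources used here. The table held 23936 named lines, of which 27 carried a date number in place of a symbol and were left out, and 0 value columns without a sample. The lowest Spearman correlation of a pair of libraries was 0.951 and the highest 0.968.

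The steps between values under 0.4 RPKM gave relative depth (ratios of whole reads within 0.1%), and read numbers are estimates that depend on transcript length. Both this step and the fit below were tested on simulated data. Counting intervals are not given, since RPKM is not a count.

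The deposited RPKM were used as log2(RPKM + 0.5), which understates changes of low genes. The 12058 genes at 1 RPKM or above in 3 or more libraries entered 1 limma-trend fit (limma 3.58.1, R 4.3.3) of the 4 group means, all 12 libraries sharing an estimate of the spread. Tests of the 6 contrasts were two-sided, p-values were adjusted over all tested genes (Benjamini-Hochberg) and the threshold was 0.05. An exact permutation test of 3 against 3 libraries cannot go below 0.1, so the spread was pooled in this model.

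The members, role lists, partner lists and markers were chosen with earlier results of these data known. The naming rule took all called members, the 3 most abundant of each role, and 20 standing carriers, results of 2 members are counted but not reported here, and a few members near the detection threshold or with a marked pattern were named after their values were seen. Alternatives were 2 other pseudocounts, no filter, median-ratio and quantile scaling, depth or Dbp as a covariate, a correction of high values, a replicate block, CoJAX 3 as the only CoJAX library, and leaving out each library. Promoter windows came from RefSeq (GRCm38.p6), in a search of 32851 windows of 300 bases.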

Additional observations from a re-analysis of the deposited data

How the results depend on the processing

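Of the 13 called differences, all 13 passed the threshold under both pseudocounts, median-ratio scaling, quantile normalization and the correction of high values. Without a filter 9 of 13 passed, under the replicate block 9, with Dbp as a covariate 12 and with depth as a covariate 0. Without 1 library 5 to 12 passed. None of the 13 changed sign under any of the 22 alternatives. Of 47 uncalled differences, Slc10a1 between CoTAC and TAC changed sign under quantile normalization (0.03, adjusted p = 0.908, limma).

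Counts of called transporter genes moved as follows, with the calls among all genes in brackets or at the end. Between TAC and JAX the count of 1 became 2 without a filter, 3 under quantile normalization, 2 with the correction of high values, 4 with the Dbp covariate and 0 with the depth covariate, and was 0 to 6 without 1 library. Between CoJAX and JAX the count of 10 became 0 with the depth covariate, and was 3 to 10 without 1 library (10.6% to 28.6% of all genes). Between CoTAC and TAC the count of 1 became 0 without a filter, with the depth or Dbp covariate and under the replicate block. Without 1 library it was 0 to 3 (0.0167% to 12.7% of all genes). Between CoTAC and CoJAX the count was 0 to 2 without 1 library (0.0167% to 1.91% of all genes). For the vendor average the count of 1 became 0 without a filter, with the depth covariate and under the replicate block. It was 5 with the Dbp covariate, and 0 to 6 without 1 library (0.375% to 15.9% of all genes). For the interaction it was 0 to 1 without 1 library (0% to 0.383% of all genes). Among all genes, calls between CoJAX and JAX went from 2911 to 39 with the depth covariate. Those between CoTAC and TAC went from 78 to 52 without a filter and 17 under the replicate block. With the depth covariate they were 6, and with the Dbp covariate 52. For the vendor average they went from 418 to 183 without a filter and 72 under the replicate block. With the depth covariate they were 89, and with the Dbp covariate 950. The causes were not tested. A limit of 0.5 RPKM in 3 libraries would have kept 48 members, 1 RPKM in any library 48, and 1 RPKM in all libraries 39.

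Replicate numbers did not pair the samples: of 18 same-numbered pairs 1 correlated above 0.1 (range -0.174 to 0.151), and 1 of 12 libraries correlated best with its own number. With the number as a block, 8 transporter genes were called between CoJAX and JAX and 1 between TAC and JAX. Of all 12058 genes tested, 63 were called between TAC and JAX with the block, against 493 without it. Between CoJAX and JAX, the block left fewer calls among all genes than the 2911 without it. Depth limited the low genes most: 1 read in 2000 nucleotides was worth 0.14 to 0.34 RPKM.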
